A study of Mus musculus with 6 samples.

Results

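The RNA-silencing genes of the Tudor and Mov10 families were followed through an RNA sequencing comparison of MA-10 cells with STARKO1 cells. The group held 9 of the 14774 genes in the deposited table, picked by gene symbol: the helicases Mov10l1 and Mov10, the Tudor-domain genes Tdrkh, Tdrd3, Tdrd7 and Snd1, and the Argonautes Ago1, Ago2 and Ago3. Mov10l1 and Tdrkh were chosen by their fall between these same cell lines, so their difference is given as a description and without a test. The other 7 genes were added as relatives or partners, with results of these data known. MA-10 is a mouse tumor Leydig cell line with the wild-type genotype, represented by 3 libraries. STARKO1 (genotype STAR KO, 3 libraries) is a clone grown from MA-10 cells after CRISPR/Cas9 cutting in exon 2 of Star, the gene for the steroidogenic acute regulatory protein that brings cholesterol into mitochondria. All cells were untreated, and total RNA was sequenced with a stranded kit. Because STARKO1 is 1 clone, the loss of Star cannot be told apart from what else distinguishes that clone from its parent line, and the labels do not say that the libraries came from separate cultures, so that p-values measure only the spread between these libraries.

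Small RNAs silence transcripts by guiding Argonaute proteins to them. In somatic cells AGO proteins carry microRNAs and work with TNRC6 proteins, the helicase MOV10 and the nuclease SND1 in the RNA-induced silencing complex (RISC), which slows translation and speeds mRNA decay. In germ cells the PIWI branch of the Argonautes carries piRNAs against transposons. MOV10L1, the testis relative of MOV10, is the helicase that feeds piRNA precursors into processing, and TDRKH is a mitochondrial Tudor protein that holds PIWI proteins while the piRNA 3′ ends are trimmed. Tudor domains bind methylated arginines, the mark that protein arginine methyltransferases such as PRMT5 place on PIWI proteins. TDRD7 is a component of germ granules and lens RNA granules, and TDRD3 forms a complex with the topoisomerase TOP3B.

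Total estimated counts ranged from 14114351 to 19530062 per library. Star itself had 697 to 1261 counts in the MA-10 libraries and 36 to 48 in the STARKO1 libraries (log2 fold change -5.09, SE 0.331, edgeR quasi-likelihood test, adjusted p = 0.00121), in the direction of its label. MA-10 replicate 1 stood apart from its own group. Over 11939 tested genes its log2 counts correlated at 0.897 and 0.931 with the other MA-10 libraries but at 0.956 to 0.959 with the STARKO1 libraries, and fold changes without it are given for the genes described below. All 10 Leydig-like marker genes had rows, with a summed level of 2150 to 2770 CPM (the count scaled to the TMM-adjusted library size) in MA-10 and 1720 to 1800 CPM in STARKO1. The sum includes Star and came mostly from Cyp11a1, Hsd3b6 and Nr5a1. Its genes went both ways. Star, Cyp11a1, Hsd3b1, Hsd3b6 and Lhcgr lay lower in every STARKO1 library than in any MA-10 library, as did 21.0% of all tested genes. Nr5a1 and Cyp17a1 lay higher, as did 21.5%, and Insl3, Gata4 and Scarb1 overlapped. Of 12 germ cell-like markers, Ddx4 and Dnd1 had rows, with a sum of 8.37 to 19.2 CPM in MA-10 and 17.3 to 18.4 CPM in STARKO1; the other 10 were not analysed here. The sum of 4 of 9 Sertoli-like markers was 337 to 529 CPM in MA-10 and 575 to 597 CPM in STARKO1, mostly from Rhox5, and that of 2 of 7 macrophage-like markers was 4.86 to 9.85 and 6.37 to 8.56 CPM. The sum of 2 of 5 peritubular-like markers was 13 to 20.5 CPM in MA-10 and 1.72 to 2.59 CPM in STARKO1, where Des fell and Myh11 overlapped. The marker lists are named after testis cell types, while both samples here are cultured cell lines and not tissue. The part of other cell types in the results below was not tested, and in bulk RNA fewer cells of a type and less RNA per cell cannot be told apart.

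The piRNA-pathway genes Mov10l1 and Tdrkh were read at low levels in MA-10 cells and not at all in STARKO1 cells. Mov10l1 (chromosome 15, 88982909 to 89055153, plus strand, GRCm38) had, in order of replicate number, 104, 49 and 34 counts in MA-10, which is 5.96, 4.25 and 2.99 CPM, and 0 counts in each STARKO1 library. Tdrkh (chromosome 3, 94413273 to 94434669, plus strand) had 32, 57 and 54 counts in MA-10, or 1.83, 4.94 and 4.76 CPM, and again 0 counts in each STARKO1 library. The cell lines did not overlap for either gene, which is the property they were chosen for. A count of 0 allows up to 3 counts, or 0.129 to 0.177 CPM depending on the STARKO1 library, where this limit covers counting error only. Against the highest of these limits Mov10l1, at 4.40 ± 1.49 CPM in MA-10 (SD, n = 3), was at least 24.9-fold lower in STARKO1, and Tdrkh, at 3.84 ± 1.74 CPM, at least 21.7-fold lower. Taken from the lowest MA-10 library alone, the bounds were 16.9-fold for Mov10l1 and 10.4-fold for Tdrkh, and without MA-10 replicate 1 they were 20.5-fold and 27.4-fold. The MA-10 libraries ordered the pair differently, since replicate 1 was 1.64 times the mean of replicates 2 and 3 for Mov10l1 and 0.378 times that mean for Tdrkh. On the opposite strand of Tdrkh lies Oaz3, a gene known from spermatids that was not analysed here, and the strand setting of the counting is not given in the sources used here.

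**Figure D1:**
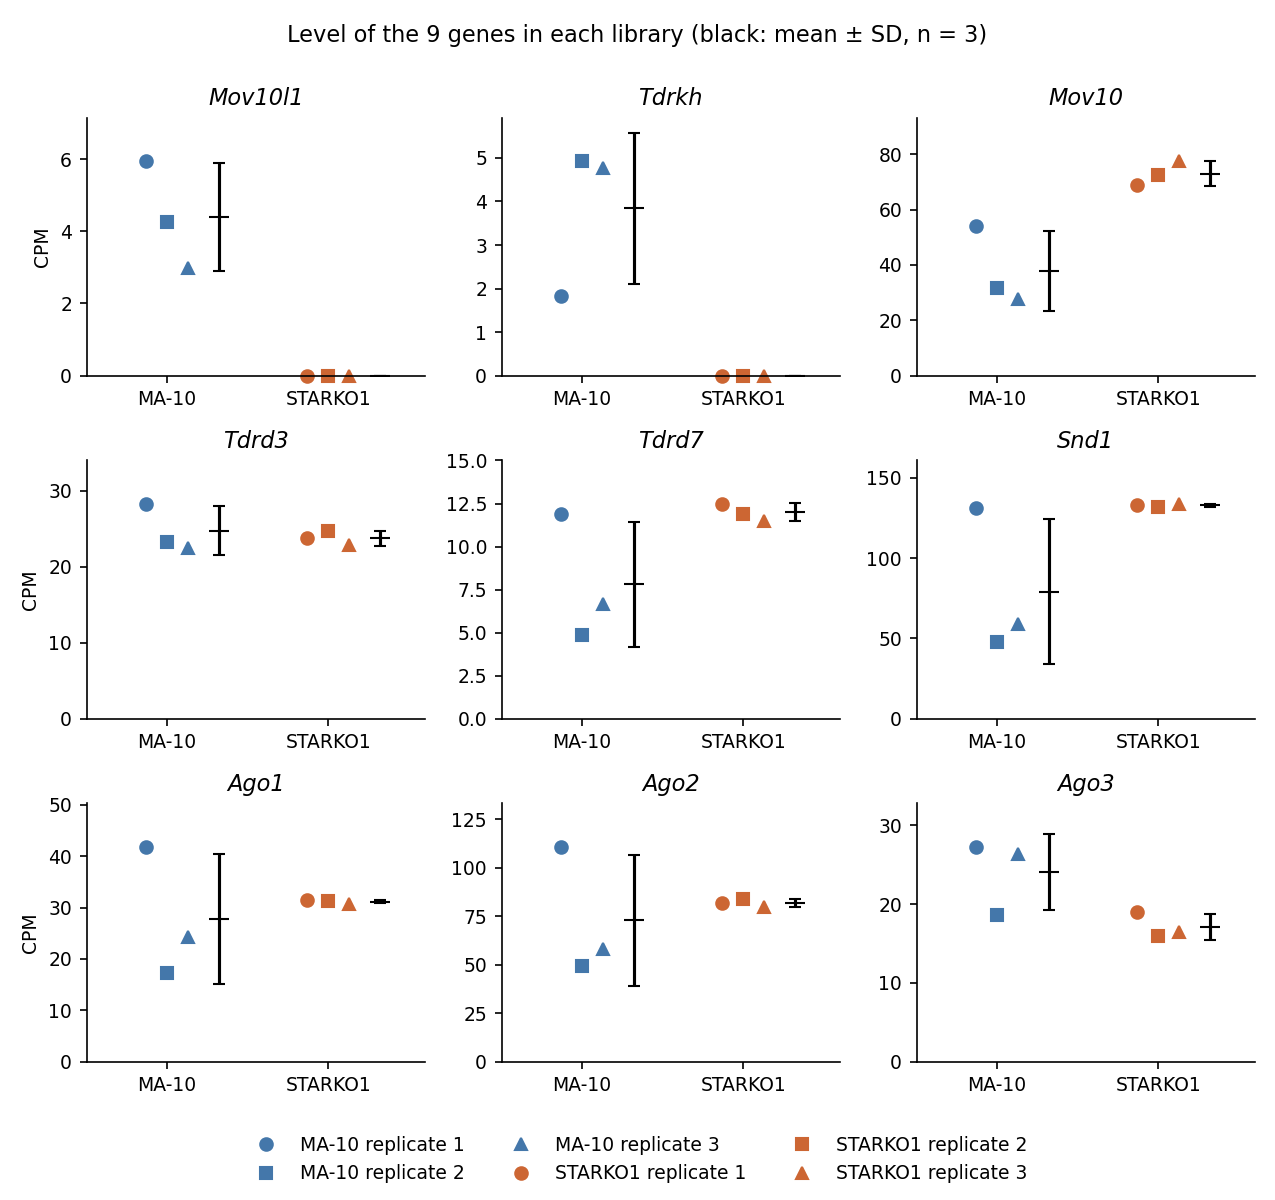
Level of each of the 9 genes in each of the 6 libraries, in CPM on the vertical axes; points are libraries, and black marks are the mean ± SD (n = 3). Mov10l1 and Tdrkh lie at 0 in all 3 STARKO1 libraries, whereas for Snd1, Ago1, Ago2 and Tdrd7 MA-10 replicate 1 lies nearer the STARKO1 libraries than MA-10 replicates 2 and 3 do, or above them.

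The sequence just upstream of both start sites is shown because these are the members with no read in STARKO1. RefSeq promoter windows (GRCm38.p6, 250 bases before to 50 after each start) matched 8 of the 9 members, with Ago2 unmatched. The stretch before the first annotated start of Mov10l1 (chr15:88982744-88982908, plus strand) and of Tdrkh (chr3:94412994-94413243, plus strand) is printed 5′ to 3′, with capitals marking the core of the MYB recognition sequence (TAACNG, or CNGTTA on the other strand) and the CCAAT box (CCAAT, or ATTGG on the other strand). 
Mov10l1: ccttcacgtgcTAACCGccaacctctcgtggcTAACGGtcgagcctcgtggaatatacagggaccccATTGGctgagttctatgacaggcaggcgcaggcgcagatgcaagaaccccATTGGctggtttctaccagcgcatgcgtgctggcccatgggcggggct
Tdrkh: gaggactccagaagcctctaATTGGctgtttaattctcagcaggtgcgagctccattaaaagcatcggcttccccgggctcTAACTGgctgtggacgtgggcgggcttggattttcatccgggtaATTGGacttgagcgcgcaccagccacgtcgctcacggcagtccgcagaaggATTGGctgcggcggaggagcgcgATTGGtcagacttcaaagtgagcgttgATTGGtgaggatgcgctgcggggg
The window of Mov10l1 held 2 MYB cores, 133 and 154 bases before the first annotated start, and 2 CCAAT boxes. At least as many MYB cores were present in 3.91% of the 32851 mouse windows, and as many CCAAT boxes in 11.7%. The Tdrkh window held 1 MYB core and 5 CCAAT boxes, and at least as many were present in 23.3% and 0.271% of windows. The GC box (GGGCGG, or CCGCCC on the other strand) was also searched, with 1 match for Mov10l1 and 2 for Tdrkh, numbers reached by 35.7% and 19.5% of windows. Among the other members Snd1 held 2 CCAAT boxes, Ago1 held 1, and Tdrd7 held 1 MYB core, while Mov10, Tdrd3 and Ago3 held neither motif. A match describes letters and not a bound factor, and since the motifs were picked after the sequences were seen, the shares are a description. Mybl1, which encodes A-MYB, the known activator of pachytene piRNA genes, was read at 28.2 ± 5.59 CPM in MA-10 and 22.5 ± 0.283 CPM in STARKO1 (log2 fold change -0.33, SE 0.186, edgeR adjusted p = 0.231), and gave -0.24 without MA-10 replicate 1 (adjusted p = 0.271).

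The genes around Mov10l1 and Tdrkh stayed readable in STARKO1, although BC021767 had few counts. Of the 5 nearest table genes on each side of Mov10l1, which together span 494 kb, all 10 were tested and 0 were called at an adjusted p under 0.05 by edgeR, 0 by DESeq2 and 0 at an unadjusted p under 0.05, with log2 fold changes from -0.20 (Zbed4) to 0.68 (Tubgcp6). Across all 11939 tested genes 9.04% were called by edgeR and 3395 genes by DESeq2, and 4493 had an edgeR unadjusted p under 0.05. The closest of them, Trabd, starts 20 kb past Mov10l1 and had 21.6, 15 and 14.1 CPM in MA-10 against 22.5, 21.6 and 24.3 CPM in STARKO1, an adjusted p of 0.170. Around Tdrkh 9 genes, spread over 2100 kb, are given, and 3 of the 8 tested passed. S100a11, a calcium-binding protein, fell by 3.19 on the log2 scale (adjusted p = 0.0314), Them4, a thioesterase, fell by 1.09 (adjusted p = 0.0465), and Cgn, which encodes the tight junction protein cingulin, rose by 1.58 (adjusted p = 0.00456). Mrpl9, a mitochondrial ribosomal protein gene that starts 8.65 kb past Tdrkh, had 34.4, 23.3 and 22.3 CPM in MA-10 and 41.8, 47.6 and 45.8 CPM in STARKO1, a log2 fold change of 0.76 that missed the threshold (adjusted p = 0.0624). Each of these 19 neighbours had more than 3 counts in at least 1 STARKO1 library. BC021767, which was not tested, did so in only 1 of them, with 7, 9 and 8 counts in MA-10 and 2, 4 and 0 in STARKO1. Without MA-10 replicate 1, 7 of the Mov10l1 neighbours and 7 of the Tdrkh neighbours were called, where 65.7% of all genes were. The log2 fold changes were then 0.74 for Trabd (edgeR adjusted p = 0.00102), 1.07 for Mrpl9 (0.000125), -3.55 for S100a11, -0.95 for Them4 and 1.61 for Cgn. With all libraries and a replicate block, the edgeR adjusted p was 0.07 for S100a11, 0.105 for Them4 and 0.0297 for Cgn. Of these genes only Cgn stayed called.

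**Figure D2:**
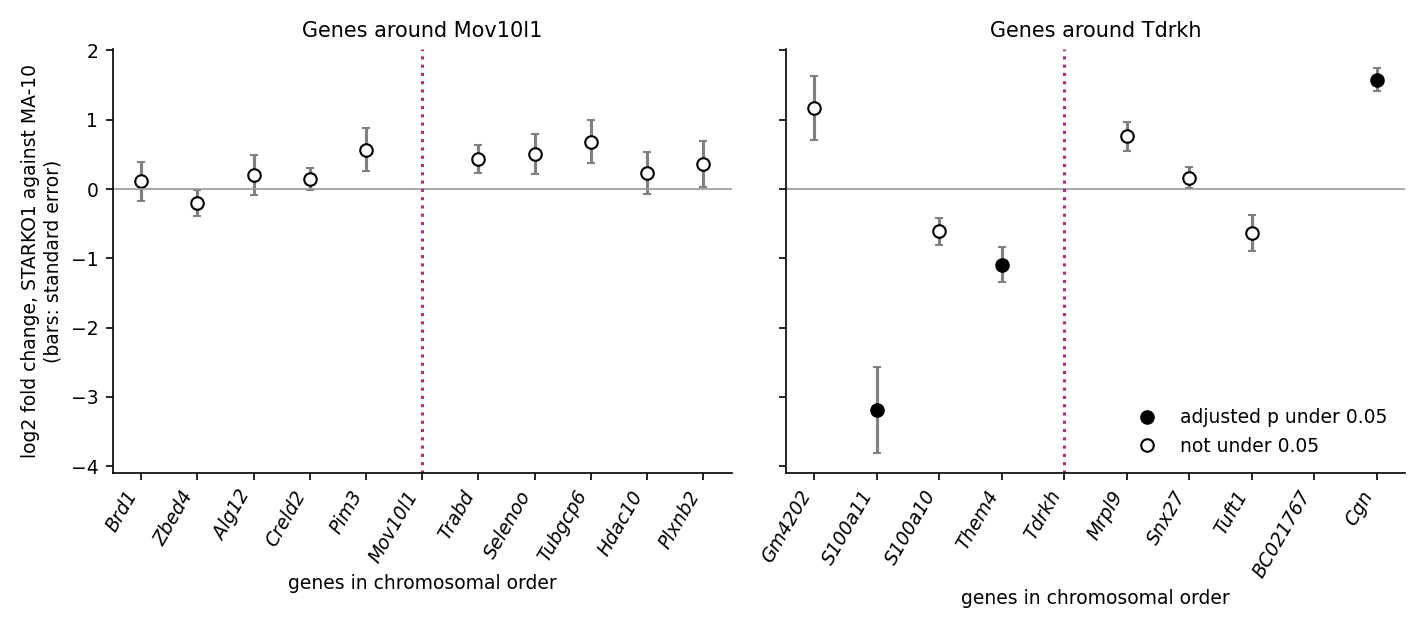
Log2 fold change of STARKO1 against MA-10 (vertical axis, bars are the standard error) for 10 genes around Mov10l1 and 9 around Tdrkh in chromosomal order; filled points have an adjusted p under 0.05 and the dotted line marks the place of the named gene. The 10 genes around Mov10l1 lie between -0.20 and 0.68, and around Tdrkh S100a11, Them4 and Cgn are filled, with BC021767 not tested because of its low counts.

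Profiles like those of Mov10l1 and Tdrkh were sought among all tested genes by the root mean square difference of log2 CPM, centred per gene, over all 6 libraries. The measure uses the same contrast that chose them, so it describes which genes share the pattern. A prior count of 2 entered the log2 CPM, so the depth of a gene at 0 counts is set by that constant. The nearness of Mov10l1 and Tdrkh to genes that kept some STARKO1 counts, Star among them, depends on it. Nearest to Mov10l1 were the imprinted Notch-like ligand gene Dlk1 (difference 0.42), Star (0.43), Sdr39u1 (0.45), the monoamine oxidase gene Maob (0.49) and Ccdc85c (0.50). Nearest to Tdrkh were the prolactin gene Prl (0.36), Sdr39u1 (0.36), the secretogranin gene Scg2 (0.40), Star (0.40) and the serpin gene Serpinb6b (0.43). Tdrkh ranked 16 in the list of Mov10l1 and Mov10l1 ranked 19 in that of Tdrkh, each at 0.71. Star and Sdr39u1 stood in both lists of 5.

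Mov10 and Snd1, the RISC cofactors, were read at higher levels in all STARKO1 libraries than in any MA-10 library. The somatic helicase Mov10 (chromosome 3, 104794836 to 104818564, minus strand) had 54.1, 31.6 and 27.7 CPM in MA-10 and 69.0, 72.4 and 77.7 CPM in STARKO1. The groups did not overlap, and the log2 fold change was 0.95 (SE 0.27), but the edgeR adjusted p over all genes was 0.0661. DESeq2 gave an adjusted p of 0.0126 for the same counts. Snd1 (chromosome 6, 28475139 to 28935163, plus strand), a nuclease with staphylococcal nuclease folds and a Tudor domain, had 131, 47.5 and 59.0 CPM in MA-10 and 133, 132 and 134 CPM in STARKO1. MA-10 replicate 1 came within 1.02-fold of the STARKO1 mean for Snd1, and the log2 fold change of 0.75 (SE 0.375) did not pass (edgeR adjusted p = 0.184). Among all tested genes, 21.5% had all 3 STARKO1 libraries above all 3 MA-10 libraries and 21.0% had them below, so 2 such genes of 7 are close to the background share.

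Of the other Tudor genes Tdrd3 gave nearly level values, and Tdrd7 varied mainly among the MA-10 libraries. Tdrd3 (chromosome 14, 87416639 to 87545505, plus strand) had 28.3, 23.2 and 22.5 CPM in MA-10 and 23.7, 24.7 and 22.8 CPM in STARKO1. The STARKO1 values fell inside the MA-10 range, with a log2 fold change of -0.06 (SE 0.16, edgeR adjusted p = 0.809). Tdrd7 (chromosome 4, 45965334 to 46034762, plus strand) had 11.9, 4.86 and 6.69 CPM in MA-10 and 12.5, 11.9 and 11.5 CPM in STARKO1. MA-10 replicates 2 and 3 were low, replicate 1 was at the STARKO1 level, and the log2 fold change of 0.61 (SE 0.323) did not pass (edgeR adjusted p = 0.206).

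The Argonautes gave overlapping values in the 2 cell lines. Ago2 (chromosome 15, 73095844 to 73184936, minus strand), known as the slicing Argonaute, had 111, 49.3 and 57.9 CPM in MA-10 and 81.8, 83.9 and 79.7 CPM in STARKO1, so the STARKO1 libraries sat between MA-10 replicate 1 and the other MA-10 libraries. Its log2 fold change was 0.17 (SE 0.312, edgeR adjusted p = 0.711). Ago1 (chromosome 4, 126435012 to 126468584, minus strand) had the same order, with 41.9, 17.3 and 24.2 CPM in MA-10, 31.4, 31.2 and 30.8 CPM in STARKO1, and a log2 fold change of 0.16 (SE 0.314, adjusted p = 0.727). Ago3, its neighbour (chromosome 4, 126331704 to 126429557, minus strand), had 27.3, 18.6 and 26.4 CPM in MA-10 and 19.0, 15.9 and 16.5 CPM in STARKO1. Its log2 fold change was -0.49 (SE 0.2, edgeR adjusted p = 0.124), with only MA-10 replicate 2 inside the STARKO1 range. In 4 of the 6 libraries the estimated counts of Ago1 and Ago3 were fractional but summed to a whole number within 0.001, so reads had been divided between these genes before deposit, and the split between them is uncertain. In MA-10 replicates 2 and 3 both were whole. Ago2 overlaps Chrac1 on the other strand, which gave a log2 fold change of -1.53 (edgeR adjusted p = 0.0657). Ago4 was not analysed here.

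The calls of 5 of these 7 genes changed with MA-10 replicate 1. That library was singled out because it lay close to STARKO1, so leaving it out widens the contrast and narrows the MA-10 spread. The p-values of that fit, from MA-10 replicates 2 and 3 against 3 STARKO1 libraries, are therefore a description. With all libraries 0 of the 7 were called by edgeR and 1 by DESeq2, and 2 had an edgeR unadjusted p under 0.05. Of all 11939 tested genes edgeR called 9.04% and DESeq2 3395, and 4493 had an edgeR unadjusted p under 0.05. When MA-10 replicate 1 was left out, 5 were called, all higher in STARKO1, against 34.0% of all tested genes called higher under the same fit. In either direction that fit called 71.4% of the 7 and 65.7% of all tested genes, so the share called was close to the background. The log2 fold changes were then 1.41 for Snd1 (adjusted p = 7.23e-05), 1.39 for Mov10 (4.30e-05), 1.14 for Tdrd7 (0.000765), 0.70 for Ago2 (0.00150) and 0.67 for Ago1 (0.00692). Tdrd3, at 0.15 (adjusted p = 0.276), and Ago3, at -0.30 (adjusted p = 0.167), did not pass. The median of the 7 log2 fold changes was 0.17 with all libraries and 0.70 without MA-10 replicate 1, beside -0.05 and 0.06 over all tested genes. MA-10 replicate 1 was 2.46 times the mean of MA-10 replicates 2 and 3 for Snd1, 2.08 times for Ago2, 2.05 times for Tdrd7, 2.02 times for Ago1 and 1.82 times for Mov10. Scaling by library size alone moved the median of all genes up by 0.43 on the log2 scale and turned Tdrd3 to 0.35, which is 0.03 below the median of all genes under that scaling.

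**Figure D3:**
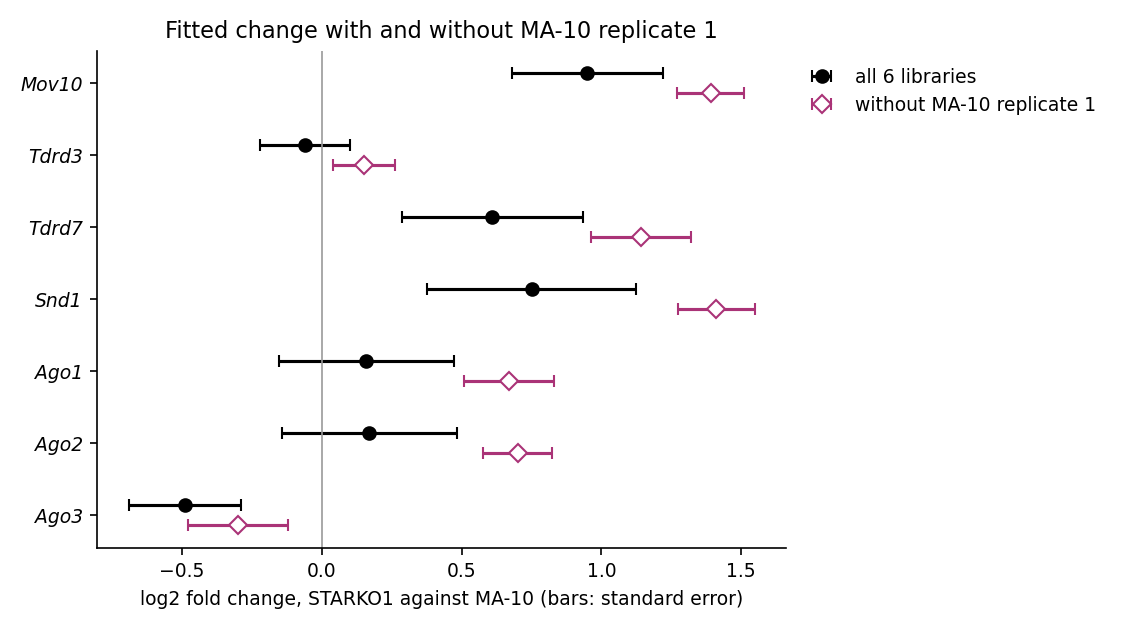
Log2 fold change of STARKO1 against MA-10 with its standard error for the 7 genes other than Mov10l1 and Tdrkh, with all 6 libraries and without MA-10 replicate 1. Leaving that library out moved Snd1 from 0.75 to 1.41 and Tdrd3 from -0.06 to 0.15.

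Per kilobase of exon the order of levels was similar in both lines. The library ranges of neighbouring genes in that order separated only in STARKO1, and not for every pair. In MA-10, the CPM per kilobase of summed exon length (RPKM) ran from Snd1 at 8.11 ± 4.63 through Mov10 at 6.74 ± 2.54, Ago2 at 5.19 ± 2.40, Tdrd3 at 4.06 ± 0.53, Ago1 at 3.43 ± 1.56, Tdrd7 at 1.97 ± 0.917 and Ago3 at 1.45 ± 0.29 to Mov10l1 at 1.05 ± 0.355 and Tdrkh at 0.626 ± 0.284 (SD, n = 3). The library ranges of every neighbouring pair in that order overlapped. Within each MA-10 library, however, Mov10 lay above Ago2, Ago1 above Tdrd7, Tdrd7 above Ago3 and Ago3 above Mov10l1. The other neighbouring pairs did not keep their order in every MA-10 library. The order was the same over MA-10 replicates 2 and 3, from Snd1 at 5.46 to Tdrkh at 0.79 RPKM. In STARKO1 Snd1 (13.6 ± 0.0886 RPKM) and Mov10 (13 ± 0.782 RPKM) overlapped, as did Tdrd3 (3.91 ± 0.156 RPKM) and Ago1 (3.83 ± 0.036 RPKM). Between these pairs Ago2 stood alone at 5.83 ± 0.152 RPKM, and below them came Tdrd7 at 3.03 ± 0.127 RPKM and Ago3 at 1.03 ± 0.0998 RPKM.

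As a share of the summed RPKM of the 3 Argonautes, Ago2 was the largest in every library. In the MA-10 libraries it took 53.8%, 51.9% and 47.4%, and in the STARKO1 libraries 53.8%, 55.5% and 54.3%. Ago1 took 31.5% to 35.0% in MA-10 and 35.6% to 36.2% in STARKO1. Ago3 took 11.2%, 16.5% and 18.3% in MA-10 and 10.6%, 8.91% and 9.5% in STARKO1. The Ago3 share was lower in each STARKO1 library than in each MA-10 library, a comparison for which an exact permutation test of 3 against 3 libraries cannot give a p under 0.10, and MA-10 replicate 1 again lay closest to STARKO1. This share rests on the division of reads between Ago1 and Ago3.

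**Figure D4:**
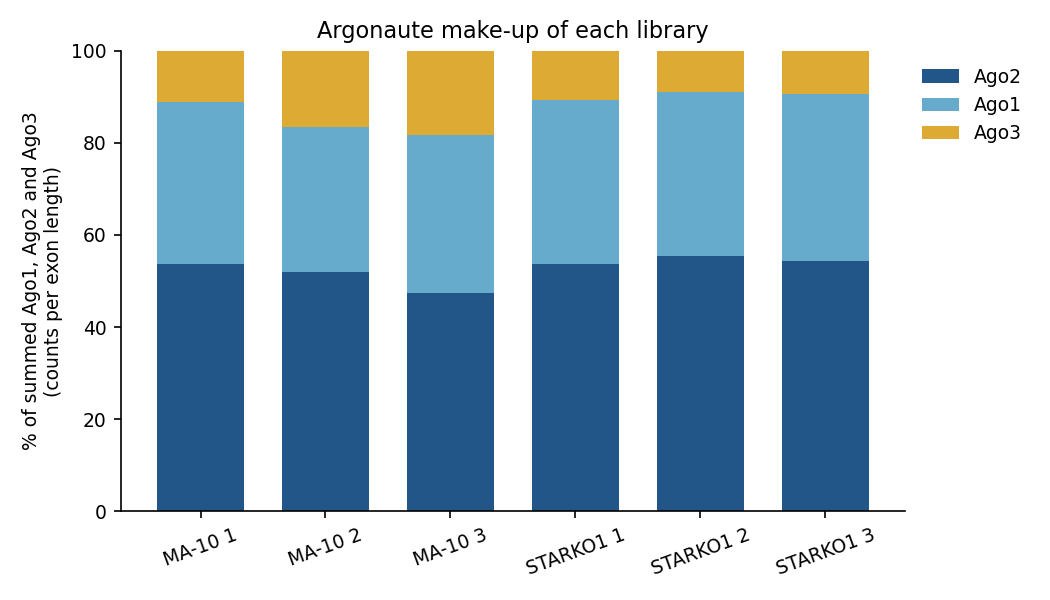
Share of Ago1, Ago2 and Ago3 in their summed level per kilobase of exon, in percent (vertical axis), for each of the 6 libraries. The Ago3 share lies between 11.2% and 18.3% in MA-10 and between 8.91% and 10.6% in STARKO1.

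The rest of the silencing machinery was read through 7 lists of 100 genes in all, the members left out and a gene in several lists counted once. Of these, 77 had rows and 74 were tested. edgeR called 7 higher and 1 lower in STARKO1, which is 10.8% of those tested beside the 9.04% of all genes. An unadjusted p under 0.05 was found for 25 of the 74, and for 4493 of all 11939 tested genes. In the microRNA biogenesis list 3 of 16 tested genes were called, all higher and all known from the nuclear first step. Of the 16, 7 lay higher and 3 lower in every STARKO1 library than in any MA-10 library. Among all tested genes 21.5% lay higher and 21.0% lower. Dgcr8, the partner of the nuclease DROSHA, had 11.1, 6.94 and 6.69 CPM in MA-10 and 29.8, 31.0 and 32.4 CPM in STARKO1, a log2 fold change of 1.91 (SE 0.234, adjusted p = 0.00779). It was the only list gene that stayed called with a replicate block (adjusted p = 0.0297). Ddx17, a helicase of the same complex, rose by 1.16 (adjusted p = 0.0272) and Srrt, which links the complex to capped RNA, by 0.92 (adjusted p = 0.0356). Drosha itself had 65.6 ± 1.83 CPM in MA-10 and 72.1 ± 2.29 CPM in STARKO1 (adjusted p = 0.472), Dicer1 had a log2 fold change of 0.29 (adjusted p = 0.365), and the export factor Xpo5 had 0.70 (adjusted p = 0.0610). Ddx5, also in this list, had -0.15 (edgeR adjusted p = 0.71). Without MA-10 replicate 1 Drosha gave 0.24 (adjusted p = 0.0751), Dicer1 0.62 (0.00491), Xpo5 0.97 (0.000258) and Ddx5 -0.3 (0.0482). The list then had 15 of 16 genes called, where 65.7% of all genes were.

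The arginine methylation list, of writers of the mark that Tudor domains read and their partners, had 3 of 8 tested genes called, all higher. Wdr77, which encodes the MEP50 subunit that works with PRMT5, had 16.4, 10.7 and 7.75 CPM in MA-10 and 34.5, 35.0 and 38.1 CPM in STARKO1 (log2 fold change 1.62, SE 0.281, edgeR adjusted p = 0.0232). Prmt5 rose by 0.68 (adjusted p = 0.0428), from 41.2 ± 3.94 to 66 ± 4.02 CPM, and Prmt9 by 0.74 (adjusted p = 0.0293), from 22.4 ± 0.621 to 37.3 ± 2.33 CPM. Prmt7 had -1.46 (adjusted p = 0.0841) and Prmt1 0.10 (adjusted p = 0.681), and without MA-10 replicate 1 they had -1.77 (3.92e-05) and 0.09 (0.524). The 3 calls stand beside 9.04% of all genes called. Each had its 3 STARKO1 libraries above all MA-10 libraries, as had 21.5% of all genes. With a replicate block the adjusted p was 0.0525 for Wdr77, 0.117 for Prmt5 and 0.104 for Prmt9, so that all 3 calls were lost, as they were in 5 of the 6 fits that left out a library.

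Among the piRNA genes 9 of 26 had rows and 7 were tested, with 1 called higher and 1 lower, where 9.04% of all tested genes were called. Tdrd9, a helicase with a Tudor domain that acts with PIWI proteins and the only called gene of 4 tested in the Tudor list, had 36, 7 and 7 counts in MA-10 and 160, 130 and 111 in STARKO1 (log2 fold change 2.58, SE 0.472, edgeR adjusted p = 0.0260). Tex15, which acts in piRNA-directed DNA methylation, had 12.2, 14.7 and 20 CPM in MA-10 and 7.61, 7.43 and 7.58 CPM in STARKO1, a fall of 1.05 on the log2 scale (edgeR adjusted p = 0.0365). Piwil2, the PIWI gene with a row, was read at 388, 178 and 206 CPM in MA-10 and 251, 264 and 267 CPM in STARKO1, a log2 fold change of 0.02 (adjusted p = 0.971). Without MA-10 replicate 1, the highest library for this gene, Piwil2 gave 0.53 and was called (adjusted p = 0.00618). At 48.7 ± 21.5 RPKM in MA-10 and 49.3 ± 1.68 RPKM in STARKO1, Piwil2 was read at a higher level per kilobase than any of the 9 members. The germ cell helicase Ddx4 was at 1.00 ± 0.238 RPKM in MA-10 and 0.805 ± 0.156 RPKM in STARKO1 (adjusted p = 0.433, and 0.802 without MA-10 replicate 1). Piwil1, Piwil4, Mael and Asz1 were not analysed here.

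The remaining lists had 0 calls in the edgeR fit, with an unadjusted p under 0.05 for 2 RISC genes, 5 decay genes and 2 partners of Tdrd3 and Tdrd7, and 1, 4 and 2 calls by DESeq2. For comparison, 9.04% of all 11939 tested genes were called by edgeR and 3395 genes by DESeq2. An edgeR unadjusted p under 0.05 was found for 4493 of them. Of 11 tested RISC genes, Tnrc6a gave -0.91 (adjusted p = 0.0946), Tnrc6b 0.55 (0.186), Fmr1 -0.48 (0.352) and Fxr1 -1.19 (0.0830), where Tnrc6a and Tnrc6b encode the GW182 proteins that AGO binds. Of 26 tested deadenylation and decay genes, the decapping scaffold Edc4 gave 1.15 (0.0738), Lsm14a -0.87 (0.0558), Ddx6 0.36 (0.226) and Cnot1 0.21 (0.435). Of 6 partners of Tdrd3 and Tdrd7, Top3b gave 0.45 (0.0826), with 15.2 ± 0.835 CPM in MA-10 and 20.9 ± 1.32 CPM in STARKO1. All the genes named here but Cnot1 (0.36, adjusted p = 0.0695) were called without MA-10 replicate 1, with log2 fold changes of -1.08 for Tnrc6a, 0.97 for Tnrc6b, -0.73 for Fmr1, -1.44 for Fxr1, 1.73 for Edc4, -0.93 for Lsm14a, 0.65 for Ddx6 and 0.58 for Top3b. Without MA-10 replicate 1, 32 list genes were called higher and 18 lower of 74, or 67.6%, beside 65.7% of all genes. Dgcr8 was called in 3 of the 6 fits that left out a library, and the other 7 called genes only in the fit without MA-10 replicate 1, where their log2 fold changes were 3.57 for Tdrd9, 2.05 for Wdr77, 1.49 for Ddx17, 0.99 for Srrt, 0.84 for Prmt5, 0.84 for Prmt9 and -1.12 for Tex15.

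**Figure D5:**
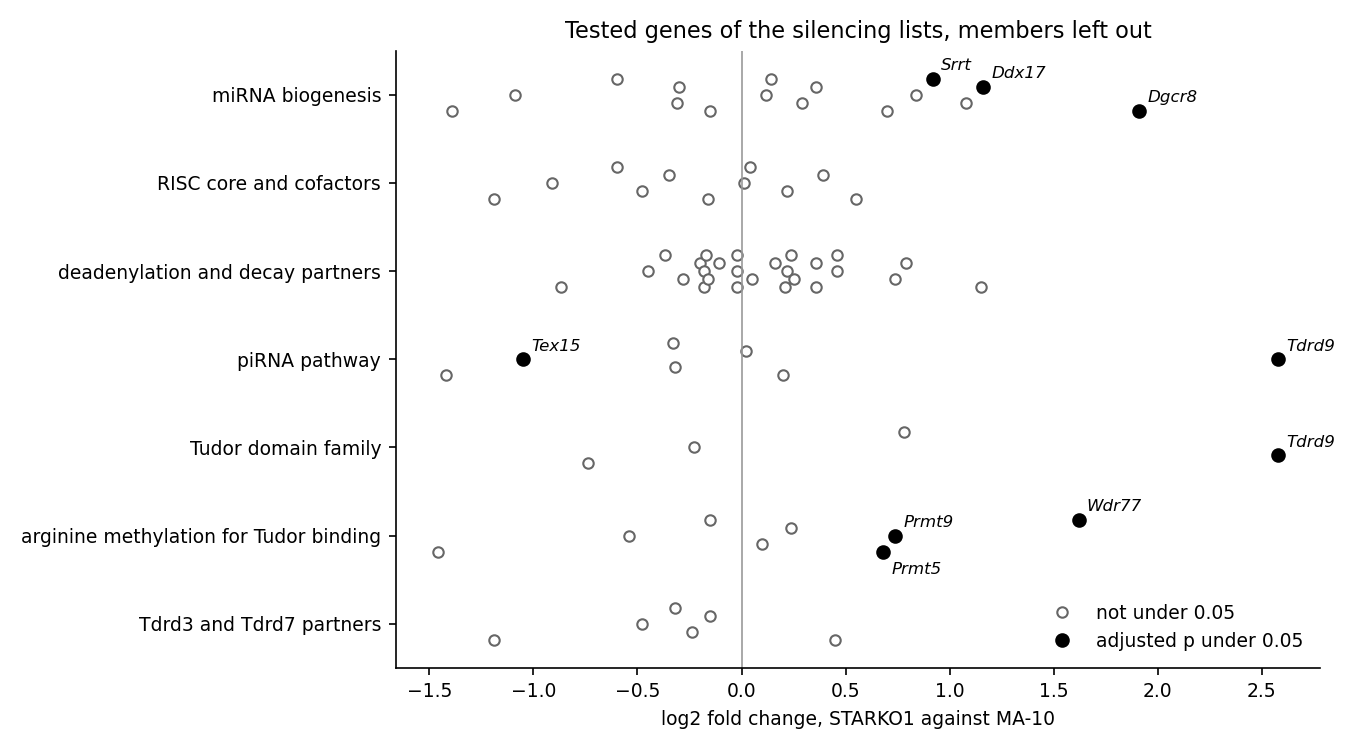
Log2 fold change of STARKO1 against MA-10 (horizontal axis) for the tested genes of 7 silencing lists; each point is a gene, filled where the adjusted p is under 0.05. Filled points are Dgcr8, Ddx17, Srrt, Wdr77, Prmt5, Prmt9 and Tdrd9 above 0 and Tex15 below 0, and Tdrd9 appears in 2 lists.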

How the data were processed

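Total RNA of 3 MA-10 and 3 STARKO1 libraries was sequenced. The authors deposited estimated counts per gene, not normalized, with replicates kept apart; in 53.4% of genes at least 1 library was off a whole number by more than 0.0005 counts, and the smallest total of a gene over the libraries was 10. The submitters' processing notes name STAR 2.6.1d (an aligner), Partek and mm10; the annotation and strand setting are not given in the sources used here. Division of reads between similar genes was done before deposit and cannot be undone.

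The deposited estimated counts were rounded, filtered (filterByExpr), scaled by TMM and tested with the quasi-likelihood test of edgeR 4.0.16 in R 4.3.3, without a block, with Benjamini-Hochberg adjustment over 11939 genes and a threshold of 0.05. The standard error is the log2 fold change divided by the square root of F. A gene at 0 was bounded by 3 counts per library. Exon lengths, coordinates and overlaps came from GENCODE vM21. Alternatives were DESeq2 1.42.0, upper quartile scaling, library size alone, other filters, a replicate block and leaving out each library. Tables and figures used Python 3.11.15, pandas 2.3.3, numpy 2.4.6 and matplotlib 3.10.9, and the scripts were tested on simulated data. Libraries held 14114351 to 19530062 counts, at which 3 counts were 0.129 to 0.177 CPM in STARKO1, and the common biological coefficient of variation was 0.291.

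Named genes are the 9 members, Star, list genes that were called or absent, up to 4 uncalled examples per list, 5 neighbours on each side of Mov10l1 and Tdrkh (1 of them is not reported here), and their 5 nearest profiles; Chrac1 was named after its values were seen. The members and lists were chosen with earlier results of these data known.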

Additional observations from a re-analysis of the deposited data

How the results depend on the processing

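The number of genes called was 1079 with all libraries, 3395 with DESeq2, 330 with library size alone, 695 with at least 10 counts in every library and 234 with a replicate block, and 89 to 7990 when a library was left out, the highest without MA-10 replicate 1. Calls were higher in STARKO1 in 47.5% of cases with TMM, 38.6% with DESeq2 and 63.6% with library size alone. The 2 members past the threshold, beside 9.04% of all genes, were Mov10l1 and Tdrkh, which were chosen for this contrast, so that the count tests nothing; it was 0 with at least 10 counts in every library, which removes both by construction, and 1 to 7 when a library was left out. List genes called were 8, 20 with DESeq2, 1 with library size alone, 1 with a replicate block, and 0 to 50 when a library was left out. Of 84 values of the other 7 members under the alternatives, 72 kept direction and side of the threshold, 6 passed it in the same direction and 6 turned direction. Tdrd3 turned to 0.08 with upper quartile scaling, 0.35 with library size alone, 0.15 without MA-10 replicate 1 and 0.03 without STARKO1 replicate 1, and without MA-10 replicate 2 Ago1 turned to -0.09 and Ago2 to -0.05 (ranges when a library was left out: -0.12 to 0.15 for Tdrd3, -0.09 to 0.67 for Ago1 and -0.05 to 0.70 for Ago2); the cause was not tested. Nothing in the labels says that same-numbered libraries were prepared together, so the numbers were not taken to pair the libraries. Deviations from the group means correlated at -0.0165 to 0.0455 between same-numbered libraries of the 2 lines. Between the other pairs they correlated at -0.0535 to 0.0382, and 2 of 6 libraries correlated best with their own number. These ranges overlap and do not decide whether the libraries were paired.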
